A study of Mus musculus with 6 samples.

Results

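Autophagy, mitophagy and lysosome genes were followed in 6 libraries of total RNA from injured mouse hearts. The group holds 38 genes, each matched by its name to 1 row of the 55359 in the deposited table: Atg genes, the Beclin and ULK kinase complexes, the ATG8 proteins, cargo receptors, 3 mitophagy genes, and Tfeb, Lamp1 and Lamp2. All animals were C57BL/6 mice that had received an AAV9 virus through the tail vein, with GFP and a cTNT promoter, which is active in heart muscle cells, in the construct. In 3 libraries, here shNC 1 to 3, the virus carried a negative control hairpin (labelled NC knockdown), and in the other 3, shYthdf2 1 to 3, a hairpin against YTHDF2, which recognises RNA carrying the methyl mark N6-methyladenosine (m6A) (labelled YTHDF2 knockdown). All samples had ischemia for 45 min, then reperfusion for 24 h, at 4 weeks after the injection. No uninjured heart is among these groups, so every comparison is between injured hearts. The labels give neither age nor sex, and do not state that replicates are separate animals, so p-values measure the spread between these libraries, which may be technical.

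Autophagy wraps part of the cytoplasm in a double membrane and delivers it to the lysosome for breakdown. The ULK kinase complex starts the process, the Beclin complex makes the lipid that marks the site, and 2 conjugation reactions attach ATG8 proteins to the growing membrane, where cargo receptors bind them. In heart muscle, mitophagy, the removal of damaged mitochondria by this route, is studied above all after ischemia and reperfusion.

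The libraries held 67023813 to 77561552 counts. Ythdf2 itself had 20.7, 24.3 and 27.0 CPM (counts relative to the library size after TMM scaling) in shNC 1 to 3 and 25.1, 25.6 and 32.7 CPM in shYthdf2 1 to 3, so the targeted transcript was not lower under the YTHDF2 label. Every direction below is therefore that of the libraries labelled YTHDF2 knockdown against those labelled NC knockdown. The libraries shYthdf2 1 and 2 were the closest pair (Spearman rho across genes = 0.976), and shNC 3 stood apart from shNC 1 (0.931) and shNC 2 (0.928), nearer to shYthdf2 1, 2 and 3 (0.955, 0.956 and 0.953) than to its own group. The heart label was borne out by cardiomyocyte markers, of which 12 of 12 were tested and none had 0 counts. They summed to 25855 to 59316 CPM in shNC against 27623 to 35463 CPM in shYthdf2. Of the 12, 2 were higher and 10 lower in shYthdf2 by the fitted log2 fold change, with a median of -0.45. In whole hearts, fewer cells of a type and less RNA per cell cannot be told apart.

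None of the 38 genes passed an adjusted p of 0.05 in edgeR's quasi-likelihood test, where 2 of the 20489 genes tested did (0.00976%). DESeq2 also called 0 of the 38, against 0.264% of all genes, and its lowest adjusted p among them was 0.474. At an unadjusted p under 0.05 in edgeR there was 1 member, Atg14, or 2.63% of the group beside 3.65% of all genes. All 38 had passed the filter on low counts, from 2.44 CPM for Atg14 in shNC 1 to 604 CPM for Pink1 in shNC 2. Of them, 17 were higher and 21 lower in shYthdf2 by the fitted log2 fold change, with a median of -0.02, and the median over all genes was -0.01. The fitted value was under 0.3 in size for 30 members. The median 95% interval, which is not adjusted over genes, reached 0.55 log2 units to either side. The adjusted threshold asks for more than an interval that excludes 0, which Atg14 had at an edgeR adjusted p of 0.976. Differences larger than 0.55 could therefore also go undetected. For 12 of the 38 the interval passed 1 log2 unit, a 2-fold difference, in 1 direction or the other.

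**Figure D1:**
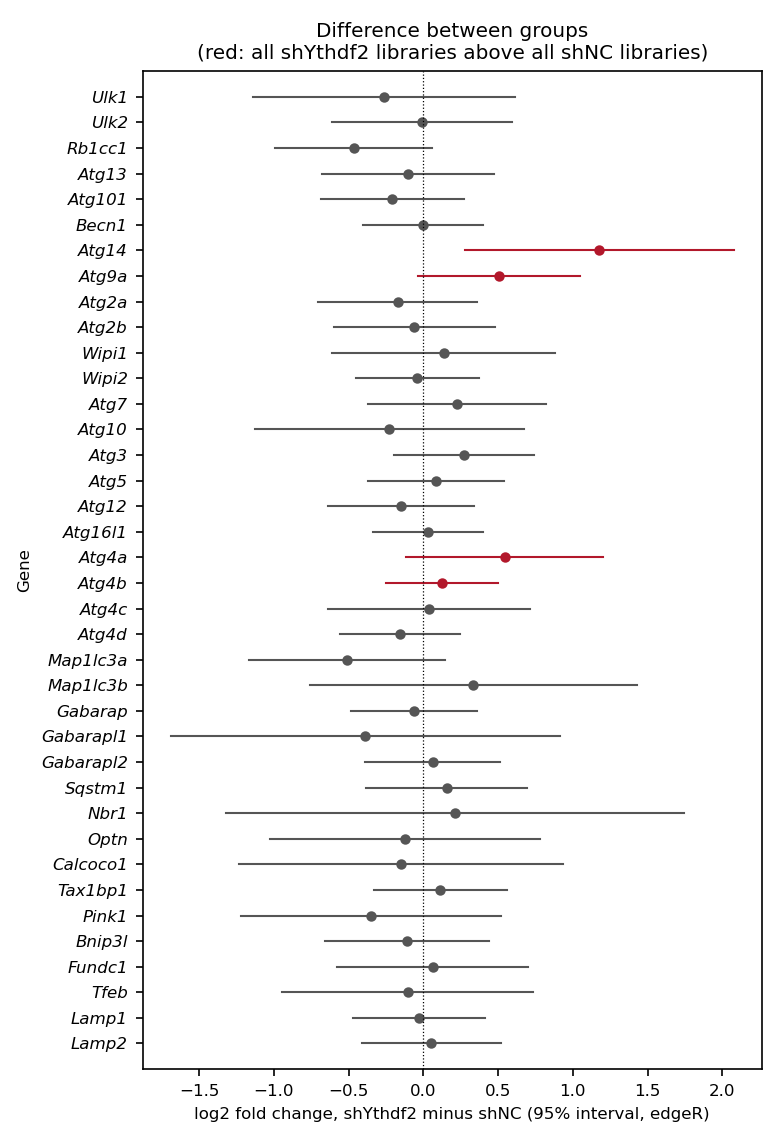
The log2 fold change of each of the 38 genes (shYthdf2 minus shNC, x axis) is drawn with its 95% interval from edgeR, ordered by role. The red genes Atg14, Atg9a, Atg4a and Atg4b had all 3 shYthdf2 libraries above all 3 shNC libraries, and among the 38 the interval of Atg14 alone excludes 0.

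In 4 members every shYthdf2 library lay above every shNC library (10.5%, beside 4.95% of all genes), and in 0 members every one lay below (beside 4.55%). These 4 were Atg14, Atg9a, Atg4a and Atg4b. The first belongs to the Beclin complex, the second to membrane supply, and the last 2 encode the proteases that process ATG8 proteins.

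Atg14 encodes the Beclin 1 partner that directs the lipid kinase VPS34 to sites of autophagosome formation. The gene (ENSMUSG00000037526, minus strand of chromosome 14, 47778350 to 47808106 in the coordinates of the deposited table, whose build is not given) had 2.44, 3.70 and 6.30 CPM in shNC 1, 2 and 3. The shYthdf2 libraries 1, 2 and 3 had 9.79, 7.35 and 11.01 CPM. Mean levels were 4.15 ± 1.96 CPM in shNC and 9.39 ± 1.86 CPM in shYthdf2 (SD, n = 3 each), so the groups did not overlap, although shNC 3 came close to shYthdf2 2. The fitted difference was 2.26-fold, a log2 fold change of 1.18 ± 0.38 (SE; 95% interval 0.28 to 2.08), and the edgeR adjusted p was 0.976. Leaving out each library in turn gave log2 fold changes from 0.91 (without shNC 1) to 1.61 (without shNC 3), and the lowest adjusted p was 0.0614, without shNC 3.

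Becn1, which encodes Beclin 1 itself, had nearly the same level in all libraries. It had 74.0, 67.9 and 72.3 CPM in shNC against 77.3, 74.7 and 61.8 CPM in shYthdf2. On the log2 scale its difference was -0.0016 ± 0.17 (SE; 95% interval -0.40 to 0.40), with an edgeR adjusted p of 0.999. The catalytic subunit gene Pik3c3, which encodes VPS34, had 17.3, 20.05 and 16.3 CPM in shNC against 14.99, 15.8 and 22.8 CPM in shYthdf2. Its regulatory partner Pik3r4 had 17.98, 21.5 and 15.04 CPM against 14.9, 15.97 and 20.4 CPM.

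Uvrag, the other Beclin 1 partner, which takes the place of ATG14 in a second form of the complex that acts on endosomes and late steps, had the smallest p of all 146 pathway genes tested beside the members. It had 4.17, 4.35 and 7.20 CPM in shNC 1 to 3 and 22.6, 20.96 and 9.45 CPM in shYthdf2 1 to 3. The groups did not overlap, but shYthdf2 3 was much nearer to the controls than the other two. Uvrag had a log2 fold change of 1.75 ± 0.40 (SE; 95% interval 0.82 to 2.68). The adjusted p of Uvrag was 0.976 in edgeR and 0.0241 in DESeq2, and it ran from 0.0241 to 1.00 over the alternatives. Platelet markers were likewise high in shYthdf2 1 and 2, with a summed 44.7, 40.6 and 53.1 CPM in shNC against 185, 191 and 51.9 CPM in shYthdf2. All 10 platelet markers were tested, and the defining markers Gp6 and Tubb1 had 0 counts in 1 library each. Of the 10, 3 were higher without overlap between groups (beside 4.95% of all genes), and 7 had an unadjusted p under 0.05 in edgeR (beside 3.65%). After adjustment 0 passed in edgeR and 2 in DESeq2 (beside 0.264%). Neutrophil markers, 8 of 10 tested and 2 with 0 counts in some library, were also highest in shYthdf2 1 and 2. They summed to 131, 199 and 379 CPM in shNC 1 to 3 and 495, 489 and 124 CPM in shYthdf2 1 to 3. Smooth muscle and pericyte markers, 7 of 7 tested and none at 0 counts, had a higher mean level in every shYthdf2 library, while their summed CPM overlapped between groups. Their mean log2 level was -0.26, -0.61 and -0.49 in shNC 1 to 3, and 0.61, 0.60 and 0.15 in shYthdf2 1 to 3, with a summed 496 to 921 CPM in shNC against 792 to 1044 CPM in shYthdf2. Of these 7 markers, 5 were higher and 2 lower by the fitted value. Without overlap between groups 2 were higher (beside 4.95% of all genes) and 0 lower (beside 4.55%). In edgeR 4 had an unadjusted p under 0.05 (beside 3.65% of all genes) and 0 passed after adjustment. In DESeq2 1 passed (beside 0.264%). Atg14, unlike Uvrag, was highest in shYthdf2 3 (11.01 CPM). The part of these cell types in the Uvrag and Atg14 values was not tested.

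**Figure D2:**
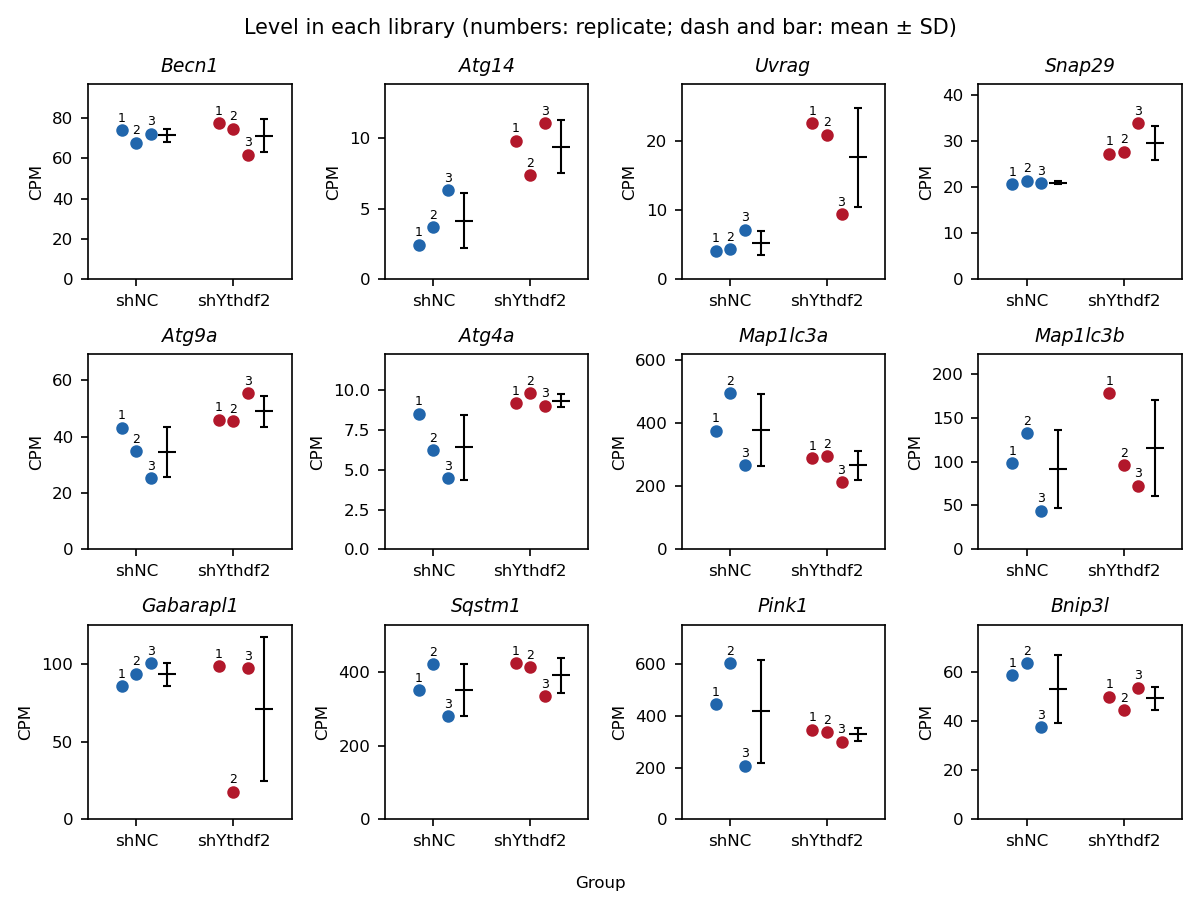
CPM in each library (points, numbered by replicate) with the mean and SD of each group are plotted for 12 genes, 10 of them members, with Uvrag and Snap29 from the pathway list; each y axis starts at 0. Atg14, Uvrag, Snap29, Atg9a and Atg4a have all shYthdf2 points above all shNC points, Becn1 stays between 61.8 and 77.3 CPM, and Gabarapl1 has a single low point at 17.8 CPM.

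The ULK complex holds the kinases Ulk1 and Ulk2, the scaffold Rb1cc1 (also called FIP200), Atg13 and Atg101, and the fitted value of all 5 was negative (-0.46 to -0.0087). Ulk1 had 83.2, 67.9 and 27.3 CPM in shNC 1, 2 and 3 and a narrow 50.2, 48.9 and 49.9 CPM in shYthdf2. The controls thus lay on both sides of the shYthdf2 libraries, with shNC 3 at the bottom. Its log2 fold change was -0.26 ± 0.37 (SE, edgeR adjusted p = 0.976), and it turned to 0.06 without shNC 1. Rb1cc1 had 27.3, 33.9 and 29.4 CPM in shNC against 17.7, 20.1 and 27.8 CPM in shYthdf2. Only shYthdf2 3 reached the control range. The log2 fold change of Rb1cc1 was -0.46 ± 0.22 (SE, edgeR adjusted p = 0.976). Atg101, which stabilises ATG13, had 28.0, 32.2 and 27.4 CPM against 29.9, 26.0 and 20.1 CPM, a log2 fold change of -0.21 ± 0.20 (SE) that was -0.063 without shYthdf2 3.

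Membrane supply rests on the lipid scramblase ATG9A, the lipid transfer proteins ATG2A and ATG2B, and the WIPI proteins that read the lipid made by VPS34. Atg9a (ENSMUSG00000033124, minus strand of chromosome 1, 75157504 to 75168606) had 43.2, 34.8 and 25.4 CPM in shNC against 46.0, 45.4 and 55.3 CPM in shYthdf2. Atg9a had a log2 fold change of 0.51 ± 0.23 (SE; 95% interval -0.04 to 1.05) and an edgeR adjusted p of 0.976. The row named Gm29253 overlaps Atg9a on the same strand and held 773 counts in shNC 3, where Atg9a was lowest with 1926 counts, and 0 to 74 counts elsewhere. With that row summed onto Atg9a the log2 fold change was 0.38, and without shNC 3 it was 0.33. Atg2a had 59.8, 51.7 and 35.3 CPM in shNC against 42.2, 47.1 and 41.1 CPM in shYthdf2, a log2 fold change of -0.17 ± 0.23 (SE) that became 0.0041 without shNC 1. Atg2b, Wipi1 and Wipi2 overlapped between groups, with Wipi1 from 23.6 CPM in shNC 3 to 55.6 CPM in shYthdf2 3.

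Of the conjugation genes, ATG4 proteases included, 7 had a positive and 3 a negative fitted value. Atg16l1, which places the conjugation machinery on the membrane, had 33.4 to 37.6 CPM over all 6 libraries, a ratio of 1.12 between the highest and the lowest. Atg5 had 11.4 to 14.4 CPM. Atg7, the E1-like enzyme that serves both reactions, had 10.2, 8.9995 and 12.9 CPM in shNC against 10.3, 11.7 and 15.6 CPM in shYthdf2 (log2 fold change 0.23 ± 0.25 SE, 0.039 without shYthdf2 3). Atg3, the E2-like enzyme for ATG8 proteins, had 22.9, 28.0 and 27.9 CPM in shNC against 27.5, 29.9 and 38.0 CPM in shYthdf2 (0.27 ± 0.20 SE on the log2 scale, 0.13 without shYthdf2 3). For both genes shYthdf2 3 was the highest library and the other libraries were mixed. The remaining conjugation genes Atg10, with 3.85 to 8.08 CPM, and Atg12, with 20.1 to 29.7 CPM, also overlapped between groups.

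ATG4 proteases cut ATG8 proteins before conjugation and release them from membranes afterwards. Atg4a had 8.51, 6.23 and 4.48 CPM in shNC against 9.18, 9.78 and 9.03 CPM in shYthdf2, so the groups did not overlap, although shNC 1 and shYthdf2 3 were close. Its log2 fold change was 0.54 ± 0.28 (SE, edgeR adjusted p = 0.976), or 0.34 without shNC 3. Atg4b, the most active of the proteases on ATG8 proteins, had 26.4, 28.7 and 29.4 CPM in shNC against 32.04, 30.1 and 29.9 CPM in shYthdf2. That difference was small, a log2 fold change of 0.13 ± 0.16 (SE, edgeR adjusted p = 0.976). Atg4d had the opposite sign, with 48.1, 59.2 and 47.0 CPM in shNC against 45.3, 45.6 and 47.7 CPM in shYthdf2 (log2 fold change -0.16 ± 0.17 SE, -0.039 without shNC 2). Atg4c had 3.17 to 5.12 CPM.

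ATG8 proteins, the LC3 and GABARAP families, coat the autophagosome and hold cargo receptors. Per length, Map1lc3a had the highest level of all 38 genes, with 161 to 334 FPKM (counts relative to gene length and depth, as the authors computed them), and the next were Pink1 at 78.8 to 181, Lamp1 at 92.4 to 115, Sqstm1 at 84.3 to 115 and Gabarap at 78.4 to 89.5 FPKM. The ranges of Pink1, Lamp1 and Sqstm1 overlap, so their order is not resolved, while Lamp1 was above Gabarap in every library. At the other end were Atg4c, Atg2b, Atg14, Atg7 and Rb1cc1, with means of 1.16, 1.22, 1.42, 1.51 and 1.58 FPKM.

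Map1lc3a had 376, 493 and 266 CPM in shNC against 289, 295 and 213 CPM in shYthdf2. Here shNC 3 lay among the shYthdf2 libraries. Map1lc3a had a log2 fold change of -0.51 ± 0.28 (SE; 95% interval -1.17 to 0.15) and an edgeR adjusted p of 0.976, and without shNC 2 it was -0.27. Map1lc3b had 97.8, 132 and 44.1 CPM in shNC against 177, 96.1 and 72.4 CPM in shYthdf2. The highest and the lowest library differed 4.03-fold, and the log2 fold change of 0.33 ± 0.47 (SE) became -0.11 without shYthdf2 1.

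Set against each other, Map1lc3a made up 96.1%, 96.0% and 97.5% of the summed FPKM of the pair in shNC against 91.2%, 95.1% and 94.9% in shYthdf2. The share was lower in all 3 shYthdf2 libraries, by 2.75 percentage points (96.5 ± 0.840% against 93.8 ± 2.21%, SD, n = 3 each). Without shYthdf2 1 the difference was -1.47 percentage points. An exact permutation test (two-sided) returned p = 0.1, the least possible with 3 against 3 libraries, and p = 0.6 after adjustment over the 6 paralog shares tested. The size of the share depends on gene length. The deposited counts and FPKM imply 1314 bases for Map1lc3a and 8367 bases for Map1lc3b, while the longest coding transcripts in GENCODE M21 have 1112 and 2633 bases. With those transcript lengths the Map1lc3a share was 90.1%, 89.8% and 93.5% in shNC against 79.4%, 87.9% and 87.4% in shYthdf2.

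Gabarapl1 was near 1 level in 5 libraries and low in the sixth. The gene (ENSMUSG00000030161, plus strand of chromosome 6, 129510123 to 129519309) had 85.6, 93.5 and 100.1 CPM in shNC against 98.3, 17.8 and 97.0 CPM in shYthdf2. The low library, shYthdf2 2, is one of the closest pair, and the Gabarapl1 levels of that pair differed 5.51-fold. Among the 9199 genes with a mean of at least 10 CPM, 67 (0.728%) differed over 4-fold between shYthdf2 1 and 2, and the median gene differed 1.07-fold. Between groups the log2 fold change was -0.39 ± 0.56 (SE, edgeR adjusted p = 0.976) and 0.07 without shYthdf2 2. The related genes Gabarap, with 161 to 196 CPM, and Gabarapl2, with 52.4 to 76.9 CPM, stayed near their other libraries, at 181 and 66.3 CPM in shYthdf2 2.

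**Figure D3:**
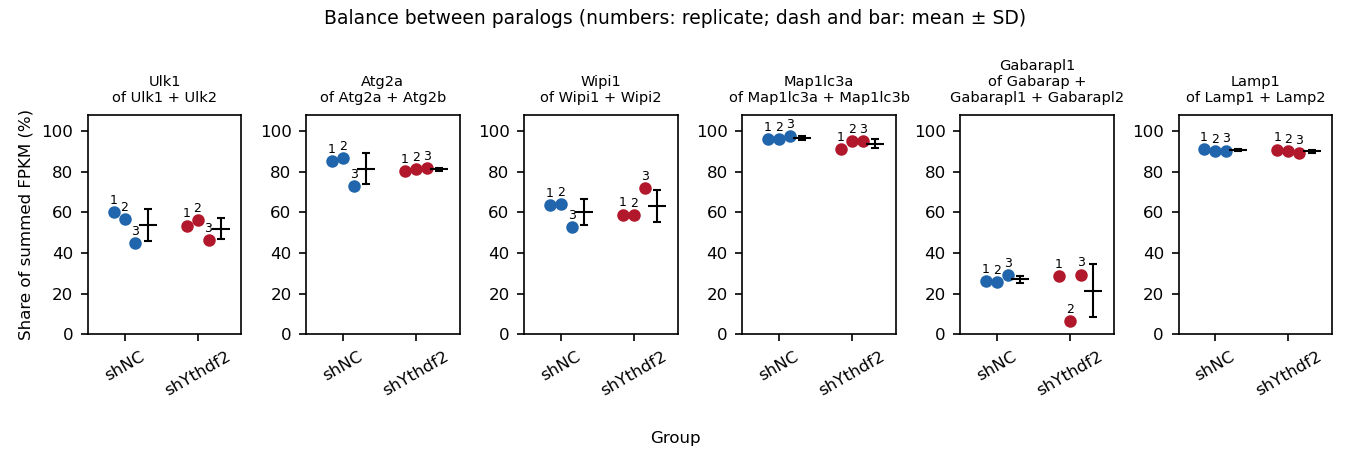
The share of 1 paralog in the summed FPKM of its family is plotted per library (points, numbered by replicate) with the mean and SD of each group, for 6 families. The Map1lc3a share lies lower in every shYthdf2 library than in any shNC library, Gabarapl1 is at 6.53% in shYthdf2 2, and Lamp1 stays at 89.4% to 91.1%.

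The other shares overlapped between groups. Gabarapl1 took 25.8% to 29.3% of the GABARAP family's FPKM in 5 libraries and 6.53% in shYthdf2 2 (exact permutation p = 0.9). Ulk1 took 60.2%, 56.6% and 45.0% of the ULK pair in shNC against 53.5%, 56.1% and 46.3% in shYthdf2 (exact permutation p = 0.7). Atg2a took 72.9% to 86.6% of its pair, with the lowest share in shNC 3, and Wipi1 took 52.6% to 72.1%. Adjusted over the 6 shares, p was 1.0 for these and for Lamp1.

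Cargo receptors bind ATG8 proteins and cargo at once, and for many of them the cargo is marked with ubiquitin. Sqstm1, which encodes p62, had 352, 421 and 279 CPM in shNC against 423, 414 and 335 CPM in shYthdf2. The groups overlapped, with shNC 3 lowest, and the log2 fold change was 0.16 ± 0.23 (SE, edgeR adjusted p = 0.976), or 0.02 without shNC 3 and 0.31 without shNC 2. The widest spread of all members was that of Nbr1, chosen here after its values were seen, whose highest and lowest libraries differed 6.14-fold. It had 58.1, 57.4 and 13.1 CPM in shNC against 18.8, 49.8 and 80.4 CPM in shYthdf2, so a low library lay in each group, and the 2 libraries of the closest pair differed 2.65-fold. Calcoco1 and Optn, also picked after seeing their values, were both lowest in shNC 3. Calcoco1 had 87.9, 117 and 27.4 CPM in shNC against 73.8, 72.1 and 63.5 CPM in shYthdf2, and Optn had 49.96, 48.9 and 17.5 CPM against 38.4, 39.3 and 29.4 CPM. Tax1bp1 had 66.3 to 94.7 CPM.

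The kinase PINK1 builds up on damaged mitochondria and marks them for removal, while BNIP3L (NIX) and FUNDC1 are outer membrane receptors that bind ATG8 proteins directly. Pink1 had 446, 604 and 208 CPM in shNC against 348, 339 and 301 CPM in shYthdf2. The controls spanned a 2.90-fold range around the shYthdf2 libraries. For Pink1 the log2 fold change was -0.35 ± 0.37 (SE; 95% interval -1.22 to 0.52), with an edgeR adjusted p of 0.976. Without shNC 2 it was 0.01, and without shNC 3 it was -0.67. Bnip3l had 58.8, 63.5 and 37.6 CPM in shNC against 50.1, 44.4 and 53.6 CPM in shYthdf2. Its log2 fold change of -0.11 ± 0.23 (SE) became 0.04 without shNC 2. Fundc1 had 9.83 to 16.03 CPM.

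Bnip3l also clears mitochondria from maturing red cells, and erythroid markers differed widely between these libraries. Their summed level was 2151, 3767 and 515 CPM in shNC 1, 2 and 3 and 654 to 685 CPM in shYthdf2, with 9 of 10 markers tested and 0 counts of Epb42 in shNC 3 and shYthdf2 2. By the fitted value 0 of the 9 were higher and 9 lower in shYthdf2. In edgeR 6 had an unadjusted p under 0.05 (beside 3.65% of all genes) and 0 passed after adjustment. In DESeq2 1 passed (beside 0.264%). Bnip3l had the same order as these markers within shNC, but so did other genes, among them Pink1 and Map1lc3a. Cardiomyocyte markers also had that order, with a mean log2 level of 0.27, 0.71 and -0.57 in shNC 1, 2 and 3. Of these 12 markers, 2 had an unadjusted p under 0.05 in edgeR (beside 3.65% of all genes). After adjustment 0 of the 12 passed in edgeR and 1 in DESeq2 (beside 0.264%). The part of either cell type in the Bnip3l level was not tested.

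TFEB is a transcription factor that switches on lysosome and autophagy genes, and LAMP1 and LAMP2 are the most abundant lysosomal membrane proteins. Tfeb had 29.4, 28.5 and 15.7 CPM in shNC against 13.4, 25.7 and 29.2 CPM in shYthdf2, 1 low library in each group. Its log2 fold change was -0.10 ± 0.36 (SE), and 0.05, 0.02 and 0.17 without shNC 1, shNC 2 and shYthdf2 1. Lamp1 had 315, 309 and 305 CPM in shNC against 287, 279 and 346 CPM in shYthdf2. For Lamp1 the log2 fold change was -0.03 ± 0.19 (SE; 95% interval -0.47 to 0.42), and it changed sign without shYthdf2 1 or 2 (0.02 and 0.03). Lamp2, which the chaperone-mediated route also needs, had 110.1, 121 and 116 CPM in shNC against 104, 109.5 and 146 CPM in shYthdf2. The difference was 0.05 ± 0.20 (SE) on the log2 scale and became -0.11 without shYthdf2 3. In both LAMP genes shYthdf2 3 was the highest library.

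TFEB is known to bind DNA sites built around CACGTG, a sequence that reads the same on both strands. Promoter sequences from RefSeq (build GRCm38.p6, 250 bases before to 50 after the start) were matched for 32 of the 38 genes, and 5 of these (15.6%) held CACGTG, as did 8.09% of the 27025 genes in that set. The 5 were Lamp1, Atg14, Atg3, Atg5 and Atg7. Of the lysosomal enzyme and membrane protein genes matched, 11 of 28 (39.3%) held it, and of the vacuolar ATPase genes 4 of 11 (36.4%). In the other 4 pathway lists the share ran from 15.8% to 30.8%. The 27025 genes are more than the 20489 tested, so they include genes not tested here, while all members were tested. A match is a run of letters, not a binding site. The sites are shown so that the copies in the members can be compared, with CACGTG in capitals and the position of its first base counted back from -1 at the base before the start.
Atg14, position -1, chr14:47568418-47568447, minus strand: aaaacaaaatccCACGTGactggccctgag
Atg7, position -132, chr6:114670952-114670981, plus strand: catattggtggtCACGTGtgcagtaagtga
Atg3, position -94, chr16:45158723-45158752, plus strand: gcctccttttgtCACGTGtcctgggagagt
Atg3, position -71, chr16:45158746-45158775, plus strand: ggagagtcgagtCACGTGaggccttaggtg
Atg5, position -14, chr10:44268313-44268342, plus strand: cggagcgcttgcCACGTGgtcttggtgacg

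Lamp1 held CACGTG 4 times, starting at positions -61, -45, -28 and -15, and 6 genes of the 27025 (0.0222%) held as many. Its 250 bases before the start are printed for this cluster at their end, with each copy in capitals.
Lamp1, chr8:13158911-13159160, plus strand: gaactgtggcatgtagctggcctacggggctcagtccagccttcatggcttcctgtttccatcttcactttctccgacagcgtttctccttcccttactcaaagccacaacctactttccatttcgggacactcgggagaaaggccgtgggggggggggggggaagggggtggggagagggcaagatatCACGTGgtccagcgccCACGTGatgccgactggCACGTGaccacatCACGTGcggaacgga

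Atg14, the member with the largest fitted difference (log2 fold change 1.18), held 1 copy. The log2 fold change was 0.23 for Atg7 and 0.085 for Atg5, with 1 copy each, and -0.03 for Lamp1 with 4 copies. Atg3 with 2 copies had 27.5 to 38.0 CPM in shYthdf2 and 22.9 to 28.0 CPM in shNC (0.27 on the log2 scale). A link between these sequences and the levels was not tested.

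The bases GGACT are one form of the sequence around m6A, the mark that YTHDF2 reads, and were counted in the longest coding transcript of each gene in GENCODE M21. The 38 genes held a median of 1.00 copies per kilobase, and the 15115 tested genes matched held 1.05. Gabarapl1 was highest with 5 copies in 1820 bases (2.75 per kilobase), followed by Sqstm1 with 7 in 2673 bases. Gabarap, Map1lc3a, Lamp1, Bnip3l and Lamp2 held 0. At least 1 copy was held by 33 of the 38 (86.8%), and by 92.4% of the tested genes matched. Atg14 had 5 copies in 3729 bases (1.34 per kilobase). These are counts of letters and do not measure m6A.

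Many of the lowest and highest values of the members lay in single libraries of each group. The library shNC 3 was the lowest of the 6 for 17 of the 38 genes (44.7%, and 23.3% of all genes), and shYthdf2 3 was the highest for 13 (34.2%, and 18.6% of all genes). The mean log2 level of the 38, around each gene's mean over the 6 libraries, was 0.09, 0.16 and -0.30 in shNC 1, 2 and 3, and for the shYthdf2 libraries it was -0.0047, -0.07 and 0.12 in the same order. By role, the cargo receptors lay lowest in shNC 3 (-0.90), followed by the mitophagy genes (-0.47), the ULK complex (-0.32) and the membrane supply genes (-0.31). Cardiomyocyte markers lay at -0.57 in shNC 3 and at 0.27 and 0.71 in shNC 1 and 2, while the macrophage markers, all 10 tested and none at 0 counts, lay at 0.48 in shNC 3 and at -0.23 and -0.48. Endothelial markers, all 7 tested and none at 0 counts, lay at -0.50 in shNC 3 and at 0.40 and 0.05 in shNC 1 and 2. They summed to 949 to 1704 CPM in shNC against 1276 to 1385 CPM in shYthdf2. Erythroid markers lay at -1.38 in shNC 3 and at 1.22 and 2.03 in shNC 1 and 2. The macrophage markers summed to 486 to 1071 CPM in shNC against 677 to 745 CPM in shYthdf2. The part of these cell types in the members' levels was not tested.

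**Figure D4:**
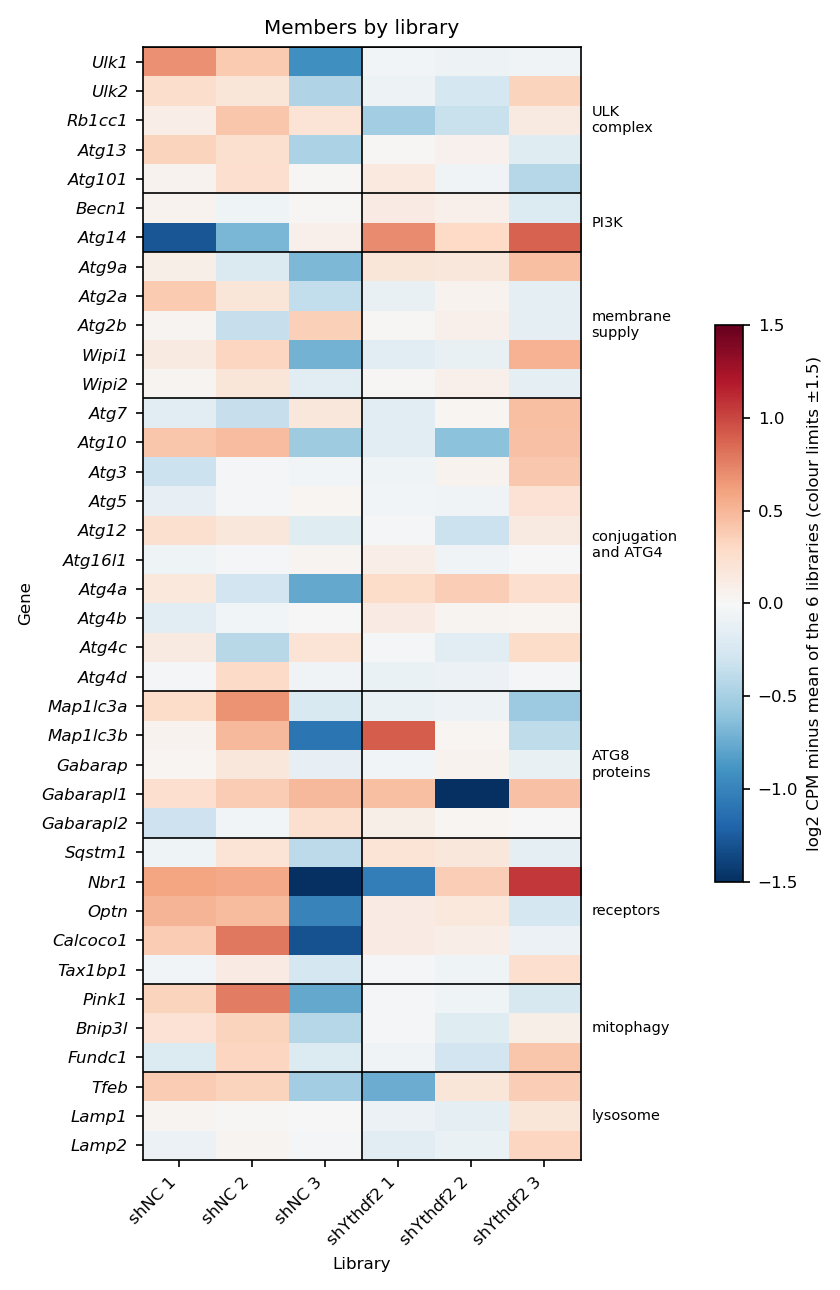
Colour gives the log2 CPM of each gene less its mean over the 6 libraries (red above, blue below, colours limited to ±1.5), with genes in rows by role and libraries in columns. The shNC 3 column is blue for Ulk1, Nbr1, Optn, Calcoco1 and Pink1, the Atg14 row changes from blue to red between shNC 1 and 2 and the shYthdf2 libraries, and Gabarapl1 in shYthdf2 2 and Nbr1 in shNC 3 reach the colour limit.

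Without shNC 3, 6 of the 38 genes had an unadjusted p under 0.05 in edgeR, beside 19.6% of all genes. None passed the adjusted threshold, which 0.993% of all genes passed, and the median log2 fold change of the 38 was -0.12.

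Of 147 other genes of autophagy, mitophagy, the lysosome and their control in 6 lists, 146 were tested. None passed in edgeR, and 5 had an unadjusted p under 0.05, beside 3.65% of all genes. In DESeq2 1 passed, Uvrag, beside 0.264% of all genes. By the fitted value 79 of the 146 were higher and 67 lower, with a median log2 fold change of 0.03. The groups did not overlap in 15 of them, 11 higher (beside 4.95% of all genes) and 4 lower (beside 4.55%).

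Among 26 genes of the VPS34 complex, membrane supply and fusion, 13 were higher and 13 lower. Snap29, a SNARE protein that fuses the autophagosome with the lysosome, had 20.7, 21.5 and 20.9 CPM in shNC against 27.3, 27.8 and 33.9 CPM in shYthdf2. The controls were tight and all shYthdf2 libraries lay above them, with a log2 fold change of 0.50 ± 0.17 (SE), a 95% interval from 0.09 to 0.90 and an edgeR adjusted p of 0.976. Atg16l2, a paralog of Atg16l1, lay below in every shYthdf2 library, at 20.5, 17.7 and 13.2 CPM against 12.4, 11.9 and 11.6 CPM (log2 fold change -0.52 ± 0.22 SE).

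Of the 14 other receptors and adaptors, 5 were higher and 9 lower. Ncoa4, the receptor that delivers ferritin to the lysosome, had 10.1, 7.07 and 7.70 CPM in shNC against 7.42, 27.0 and 46.0 CPM in shYthdf2. The level in shYthdf2 1 lay within the control range, and the log2 fold change of 1.69 ± 0.58 (SE, edgeR adjusted p = 0.976) was 1.06 without shYthdf2 3 and 2.14 without shYthdf2 1. Stub1, a ubiquitin ligase gene, had 136, 136 and 111 CPM in shNC against 116, 107 and 93.7 CPM in shYthdf2 (log2 fold change -0.27 ± 0.19 SE). The endoplasmic reticulum receptor gene Retreg1 had 138, 158 and 53.9 CPM in shNC against 88.4, 92.6 and 84.9 CPM in shYthdf2. Its controls lay on both sides, and the log2 fold change of -0.40 ± 0.37 (SE) was -0.12 without shNC 2 and -0.74 without shNC 3.

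The 22 other mitophagy genes, 10 higher and 12 lower, had a median log2 fold change of -0.06, and all overlapped between groups. The mitofusin genes Mfn1 and Mfn2 encode proteins that fuse outer mitochondrial membranes. Mfn1 had 252, 291 and 126 CPM in shNC against 154, 149 and 187 CPM in shYthdf2 (log2 fold change -0.45 ± 0.32 SE, -0.21 without shNC 2 and -0.73 without shNC 3). Mfn2 had 343, 399 and 220 CPM in shNC against 116, 123 and 366 CPM in shYthdf2, so shYthdf2 3 stood with the controls. Its log2 fold change was -0.67 ± 0.49 (SE), or -1.42 without shYthdf2 3 and -0.39 without shYthdf2 1.

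Of 36 genes for lysosomal enzymes and membrane proteins, 26 had a positive fitted value, as did 48.6% of all genes, and the median log2 fold change was 0.07. Their mean log2 level was -0.09, -0.12 and 0.04 in shNC 1 to 3, and -0.03, 0.0094 and 0.20 in shYthdf2 1 to 3, so shYthdf2 3 stood highest and the groups overlapped. Fibroblast markers, all 8 tested and none at 0 counts, were also highest in shYthdf2 3 (0.57) and shNC 3 (0.39), with a summed 760 to 1389 CPM in shNC against 820.0 to 1576 CPM in shYthdf2. Their part in the lysosomal values was not tested. Gla, the alpha-galactosidase gene, had 2.20, 3.17 and 5.29 CPM in shNC against 5.86, 5.71 and 7.28 CPM in shYthdf2 (log2 fold change 0.82 ± 0.36 SE). Asah1, which encodes acid ceramidase, had 37.3, 32.4 and 34.4 CPM in shNC against 37.99, 39.4 and 49.2 CPM in shYthdf2, without overlap but with shNC 1 and shYthdf2 1 close (0.28 ± 0.18 SE on the log2 scale, 0.16 without shYthdf2 3). The cathepsin B gene Ctsb had 392, 418 and 546 CPM in shNC against 471, 493 and 773 CPM in shYthdf2 (0.36 ± 0.27 SE on the log2 scale, 0.097 without shYthdf2 3). Of 16 vacuolar ATPase genes 8 were higher and 8 lower, and the 3 with the smallest p overlapped between groups. Atp6v1a had 21.3, 22.2 and 30.3 CPM in shNC against 29.7, 31.2 and 41.9 CPM in shYthdf2 (log2 fold change 0.48 ± 0.23 SE, 0.31 without shYthdf2 3). Atp6v0c had 95.9, 236 and 110.4 CPM in shNC against 91.95, 82.4 and 118 CPM in shYthdf2. The single high library shNC 2 set its log2 fold change of -0.60 ± 0.37 (SE), which was -0.078 without it. Atp6v1f had 60.2, 73.8 and 44.5 CPM in shNC against 52.1, 47.3 and 38.1 CPM in shYthdf2 (-0.38 ± 0.24 SE on the log2 scale, -0.19 without shNC 2).

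Of the 32 regulators, 17 were higher and 15 lower. The Ragulator complex, which anchors the growth kinase mTORC1 to the lysosome, held the 2 with the smallest p. Lamtor3 had 14.5, 12.8 and 12.02 CPM in shNC against 18.2, 40.3 and 25.3 CPM in shYthdf2. Lamtor3 had a log2 fold change of 1.09 ± 0.30 (SE, edgeR adjusted p = 0.976), which was 0.74 without shYthdf2 2. Lamtor4, a subunit of the same complex, had 41.5, 46.8 and 37.7 CPM in shNC against 32.1, 31.0 and 33.0 CPM in shYthdf2, the opposite order (log2 fold change -0.39 ± 0.17 SE). The third was Mitf, a relative of Tfeb, with 32.6, 17.6 and 24.8 CPM in shNC against 11.7, 19.5 and 5.08 CPM in shYthdf2 (-1.05 ± 0.48 SE on the log2 scale, -0.68 without shYthdf2 3 and -1.57 without shYthdf2 2).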

How the data were processed

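Per the labels' protocols, a TruSeq kit turned total RNA, taken up in Trizol, into libraries. The deposited table holds raw counts per gene and FPKM, both made by the authors, per the file headers. The submitters' processing notes list Bowtie 0.12.2 and mm8 without saying what each was used for. Not given in the sources used here: the counter, its strand setting, how it treats reads that match several places, and the build of the coordinates. Hence reads of overlapping rows and of near-identical copies cannot be assigned with certainty. FPKM follow from counts with 1 length per gene.

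Tests on counts were quasi-likelihood F tests, two-sided, from edgeR 4.0.16 under R 4.3.3 (TMM, filterByExpr, Benjamini-Hochberg over 20489 genes), and p-values in the text are from it unless another test is named. Tested genes held 99.9% to 99.97% of the counts. SE derives from the F statistic. Paralog shares were compared by exact permutation. Alternatives used DESeq2 1.42.0, limma 3.58.1, other scalings and filters, a replicate block, each library left out and shYthdf2 1 and 2 summed. After seeing the data, GENCODE transcript lengths and the summed Atg9a row were added. The test was also tried on counts simulated from the means and spread of these data, and that result is not given here. The members and lists were chosen with earlier results of these data known. Values per library are given for 10 members fixed by name, the 12 with the smallest p and those without overlap, and for the 3 smallest p of each pathway list. One gene that this rule names and one marker gene are not reported here. The gene Vamp7 of a list was not analysed here. Nbr1, Calcoco1 and Optn fall outside the rule for values per library and were picked after their values were seen.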

Additional observations from a re-analysis of the deposited data

How the results depend on the processing

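No member passed the adjusted threshold under any of the 16 settings run. The count of all genes past the threshold was 2, and 54 with DESeq2, 1 with limma on log2 FPKM with a pseudocount of 0.5, 0.1 or 1, 0 with the replicate block and 0 with shYthdf2 1 and 2 summed. With 1 library left out it ran from 0 to 211, the highest without shNC 3. Among pathway genes the count was 0, 1 with DESeq2 (Uvrag), and 0 to 1 with 1 library left out, where Prkab2 passed without shNC 3 (edgeR adjusted p = 0.0495). The log2 fold change of Prkab2 ran from -0.0928 to 0.87 over the libraries left out. The members' median log2 fold change ran from -0.12 to 0.05. Same-numbered libraries did not deviate together (correlations -0.02, -0.03 and -0.07), so the numbers were not taken as pairs, and the replicate block called 0 members.

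Becn1 changed sign without the filter (0.0049) and with limma at pseudocounts of 0.5, 0.1 and 1 (0.0152, 0.0159 and 0.0143 on the log2 scale). With shYthdf2 1 and 2 summed, Tfeb (0.0108) and Lamp1 (0.0342) changed sign. With 1 library left out, log2 fold changes that changed sign ran from -0.60 to 0.065 for Ulk1, -0.0597 to 0.0945 for Becn1, -0.36 to 0.0041 for Atg2a, -0.11 to 0.70 for Map1lc3b, -0.69 to 0.0723 for Gabarapl1, -0.67 to 0.0112 for Pink1, -0.31 to 0.0381 for Bnip3l, -0.34 to 0.17 for Tfeb, -0.13 to 0.0338 for Lamp1 and -0.11 to 0.15 for Lamp2. The other 11 of the 21 members given per library by the rule kept their direction in every setting. Nbr1, Calcoco1 and Optn are not among the 21 and were not followed over the settings. Share differences in percentage points ran from -6.43 to 1.19 for Ulk1, -4.70 to 2.15 for Atg2a, -1.30 to 5.41 for Wipi1 and -9.56 to 1.85 for Gabarapl1, and without a change of sign from -3.44 to -1.47 for Map1lc3a. The cause was not tested. Atg14, with the lowest count of any member, had 181 to 837 counts per library, and the common biological coefficient of variation over all genes was 48.2%.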
